A study of Mus musculus with 4 samples.

Results

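The transcripts of the mouse mitochondrial genome were followed in platelets, the anucleate blood cells that form clots. The members were all genes that the deposited tables place on the mitochondrial chromosome. There were 27 of them among 17995 genes listed in all: 13 messenger RNAs, 2 ribosomal RNAs and 12 transfer RNAs. The table of the knockout comparison listed 26 of them, the table of the ageing comparison listed 20, and 19 were in both. All 27 had the start, end and strand of the same genes in GENCODE M21 (GRCm38/mm10), which annotates 37 mitochondrial genes; the other 10, all transfer RNAs, were not analysed here.

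The first pair of libraries came from mice with a conditional, platelet-specific knockout of HuR (labelled cKO) and from their wild-type littermates (WT), both 3 months old. The second pair came from Old mice (24 months) and Young mice (3 months), both labelled wild type. All mice were male. The labels give neither the strain nor the Cre driver, and they state no sort of the cells. Each library pooled the platelets of 7 mice, so there was 1 library per group and no replicate. HuR, an RNA-binding protein encoded by the nuclear gene Elavl1, is the target of the knockout. Elavl1 had 1481 reads in the library labelled cKO, against 876 in WT, a ratio of 1.66 (95% interval 1.53 to 1.81), and 527 in Old, against 621 in Young. The genotype label is not borne out by these reads. A total per gene shows neither the part of the gene nor the cells that the reads came from. The knockout itself was therefore not tested, and directions drawn from that library refer to its label only. All intervals cover counting error alone and leave out the spread between pools of mice.

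Platelets have no nucleus but carry mitochondria and their DNA. The circular mitochondrial genome is transcribed from both strands into long precursors, which are cut at the transfer RNAs into separate RNAs. The messenger RNAs encode core subunits of the respiratory chain complexes I, III and IV and of ATP synthase (complex V), and the ribosomal and transfer RNAs serve the mitochondrion's own translation; all other subunits and all of the replication, transcription and RNA-processing machinery come from nuclear genes.

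Read totals lay between 17702341 and 18472149 per library. All 16 platelet markers (among them Itga2b, Pf4 and Tubb1) had reads in every library, and summed to 62536 RPM (reads scaled to a common library total) in the library labelled cKO and 67695 in WT, and to 76926 in Old and 63424 in Young. Markers of other blood cells also differed. All 15 erythroid markers, globins included, had reads in every library and summed to 16207 RPM in the library labelled cKO, against 8340 in WT, and to 11498 in Old, against 21655 in Young. Of 14 neutrophil markers, 13 were listed in the ageing pair. They summed to 842 RPM in Old, where none of the 13 was at 0, against 31.5 in Young, where 4 were at 0. In the other pair 9 were listed, and these summed to 41.3 RPM in the library labelled cKO, with 1 at 0, and to 68.5 in WT, with none at 0. The 10 B-cell markers summed to 366 RPM in the library labelled cKO and 391 in WT, and to 93.4 in Old and 323 in Young, with none at 0. The 10 monocyte and macrophage markers summed to 2324 RPM in the library labelled cKO and 3410 in WT, and to 2566 in Old and 3519 in Young, with 1 at 0 in Old and 1 in Young. The 12 T and NK cell markers summed to 56.3 RPM in the library labelled cKO and 59.96 in WT, and to 58.1 in Old and 108 in Young, with none at 0. Sums follow the markers with most reads, and medians over genes, scaled as described below, can differ. For Old over Young the median log2 ratio of 9 monocyte and macrophage markers was 1.75, with 6 above 0. That of 14 erythroid markers was 0.02, with 7 above 0. The medians of the neutrophil, B-cell and T and NK cell markers had the direction of their sums. The part of these cells in the results below was not tested, and in pooled platelets fewer cells of a type and less RNA per cell cannot be told apart.

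Levels are given per gene length, as RPM per kilobase (RPKM), wherever genes are compared with each other. The most abundant member in 3 of the 4 libraries was mt-Cytb, the cytochrome b subunit of complex III (chrM:14145-15288, plus strand), at 4023 RPKM in the library labelled cKO and 4524 in WT, and at 2846 in Old and 3563 in Young. In Old the most abundant was mt-Co1, the catalytic subunit of cytochrome c oxidase, complex IV (chrM:5328-6872, plus strand). It stood at 3631 RPKM in the library labelled cKO and 3267 in WT, and at 4946 in Old and 2861 in Young. By RPKM, mt-Cytb ranked 12th, 11th, 19th and 12th among all genes listed in the libraries labelled cKO, WT, Old and Young, and mt-Co1 ranked 15th, 15th, 12th and 17th. The large ribosomal RNA mt-Rnr2 (chrM:1094-2675, plus strand) stood near these, with 2596 RPKM in the library labelled cKO and 3716 in WT, and 3476 in Old and 2534 in Young. The small ribosomal RNA mt-Rnr1 (chrM:70-1024, plus strand) was lower, at 697 RPKM in the library labelled cKO and 1300 in WT, and at 1931 in Old and 644 in Young.

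Among the complex I subunits, mt-Nd4 was highest in every library, with 1803 RPKM in the library labelled cKO and 2013 in WT, and 1363 in Old and 1478 in Young. The other long complex I messages, mt-Nd5, mt-Nd1, mt-Nd2 and mt-Nd6, lay between 261 and 827 RPKM in all 4 libraries. mt-Nd6, the only message read from the minus strand (chrM:13552-14070), stood at 0.433 of the RPKM of its neighbour mt-Nd5 in the library labelled cKO and 0.477 in WT, and at 0.417 in Old and 0.420 in Young. These genes overlap by 14 bases on opposite strands, and the sources used here do not give whether reads were counted by strand, so reads of one strand and the other cannot be told apart. The levels listed for mt-Co2, mt-Atp6, mt-Co3, mt-Nd3 and mt-Nd4l did not pass 163 RPKM in any library and had medians of 29.5 RPKM in the library labelled cKO and 46.8 in WT, and of 50.4 in Old and 24.7 in Young; nearly all of their sequence also occurs in nuclear genes, so these levels are uncertain and are not set against those of the other messages. The message with the fewest reads was mt-Atp8, an ATP synthase subunit, with 6 reads in the library labelled cKO and 2 in WT; it was not analysed in the other pair.

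**Figure D1:**
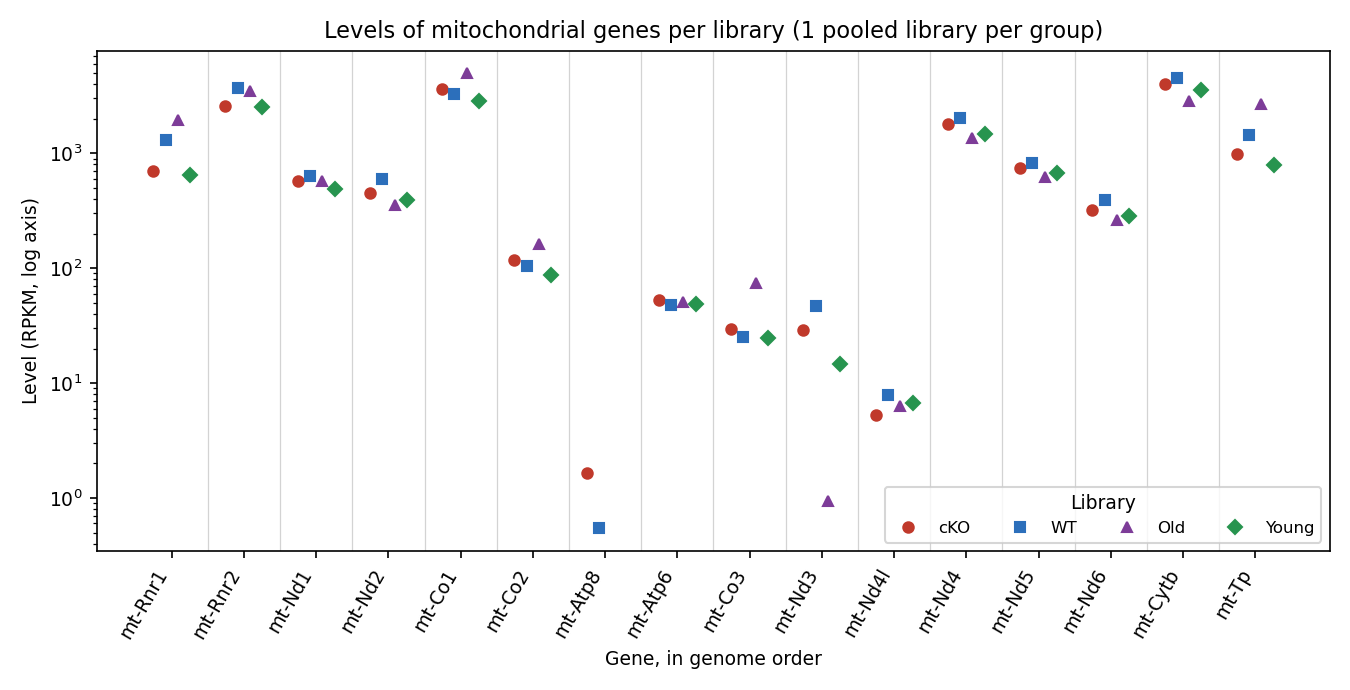
Level of the 13 messenger RNAs, the 2 ribosomal RNAs and mt-Tp (x axis, in genome order) in RPKM on a log axis, with 1 point per pooled library. mt-Co1 and mt-Cytb lie at or above 2846 RPKM in every library. The points of mt-Co2, mt-Atp6, mt-Co3, mt-Nd3 and mt-Nd4l, among them the Old point of mt-Nd3 at 0.933 RPKM, show listed levels that are uncertain because nuclear copies share their sequence.

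Mitochondrial sequence is repeated in the nuclear genome. On chromosome 1 (minus strand, chr1:24611535-24616197 in mm10) lie 7 pseudogenes, each listed in the tables as a predicted gene, that align to mitochondrial genes: Gm28439 to 876 of the 1378 bases of mt-Nd4, Gm10222 to mt-Nd4l, Gm28438 to mt-Nd3, Gm28437 to mt-Co3, Gm10925 to mt-Atp6, Gm28661 to mt-Co2, and Gm29216 to 483 of the 1545 bases of mt-Co1. All but Gm28438 and Gm29216 matched over their whole aligned length with 0 mismatches, and these 2 had 1 mismatch each. Of all 100-base windows in the gene, the share also found in another GENCODE M21 transcript was 99.9% for mt-Co3, 99.5% for mt-Co2 and for mt-Atp6, 98.5% for mt-Nd4l and 97.6% for mt-Nd3. It was 60.8% for mt-Nd4, 30.8% for mt-Co1, 3.19% for mt-Nd2 and 0% for mt-Rnr1, mt-Rnr2, mt-Nd5 and mt-Cytb. The share depended on the window length. With 50-base windows it was 51.1% for mt-Co1, 8.19% for mt-Nd2, 7.61% for mt-Nd5 and 1.04% for mt-Rnr2. It stayed at 0% for mt-Rnr1 and mt-Cytb. With 150-base windows it was 23.6% for mt-Co1 and 0% for mt-Nd2, mt-Nd5 and mt-Rnr2. Only annotated transcripts were searched, so genome sequence outside them was not covered. A share of 0% holds for transcripts and for its window length alone. The sources used here do not give how reads that match several places were counted, so the reads of the 5 mostly shared genes are uncertain.

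The listed reads were divided between gene and copy in like shares across libraries for some pairs and not for others. For mt-Co2, the copy Gm28661 held 46.0% of the pair's reads in the library labelled cKO and 49.3% in WT, and 46.6% in Old and 47.1% in Young. For mt-Atp6, the copy Gm10925 held 61.8% in the library labelled cKO and 58.7% in WT, and 44.7% in Old and 45.9% in Young. The copy shares of the mt-Co2 pair thus lay within a few percentage points of each other, while those of the mt-Atp6 pair were higher in the first table than in the second. For mt-Co3, the copy Gm28437 held 42.2% in the library labelled cKO and 38.1% in WT, and 21.4% in Old (95% Wilson interval 19.3 to 23.6) and 40.7% in Young (36.9 to 44.7). For mt-Nd4l, the copy Gm10222 held 58.2% in the library labelled cKO (46.3 to 69.3) and 35.4% in WT (24.9 to 47.5). It held 55.1% in Old (44.1 to 65.7) and 29.4% in Young (18.7 to 43.0). These rest on 67, 65, 78 and 51 reads of the pair in the same order. For mt-Nd4 and mt-Co1, where only a stretch is shared, the copies held under 1% in every library.

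The pair of mt-Nd3 and Gm28438 was divided the other way in Old. mt-Nd3, a small membrane subunit of complex I (chrM:9459-9806, plus strand), had 179 reads in the library labelled cKO and 293 in WT, and 6 in Old and 93 in Young. Gm28438 (chr1:24612775-24613119, minus strand) had 6 reads in the library labelled cKO and 6 in WT, and 283 in Old and 3 in Young. The copy therefore held 97.9% of the pair's reads in Old (95.5 to 99.05), against 3.12% in Young (1.07 to 8.79), and 3.24% in the library labelled cKO, against 2.01% in WT. In the reference sequence the gene and its copy differ at a single base of the 345 aligned, T3C, counted from 1 at the gene's 5′ end and written with the base of mt-Nd3 first, at chrM:9461. The first 30 bases of each are shown, in the direction of the gene, because they hold the only base by which the aligned stretches can be told apart, given in capitals (GENCODE M21, mm10):
mt-Nd3, chrM:9459-9488, plus strand: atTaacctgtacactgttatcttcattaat
Gm28438, chr1:24613090-24613119, minus strand: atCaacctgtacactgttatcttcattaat
The base is the last of the first codon. Which base the RNA of each library carried there was not tested, since the tables hold no sequence. Summed over gene and copy, the pair had 185 reads in the library labelled cKO and 299 in WT, and 289 in Old and 96 in Young. On the sum, Old stood at 3.30 times Young (2.61 to 4.20) and at 0.969 times WT (0.821 to 1.14), whereas for mt-Nd3 alone Old stood at 0.0706 times Young (0.0253 to 0.160).

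**Figure D2:**
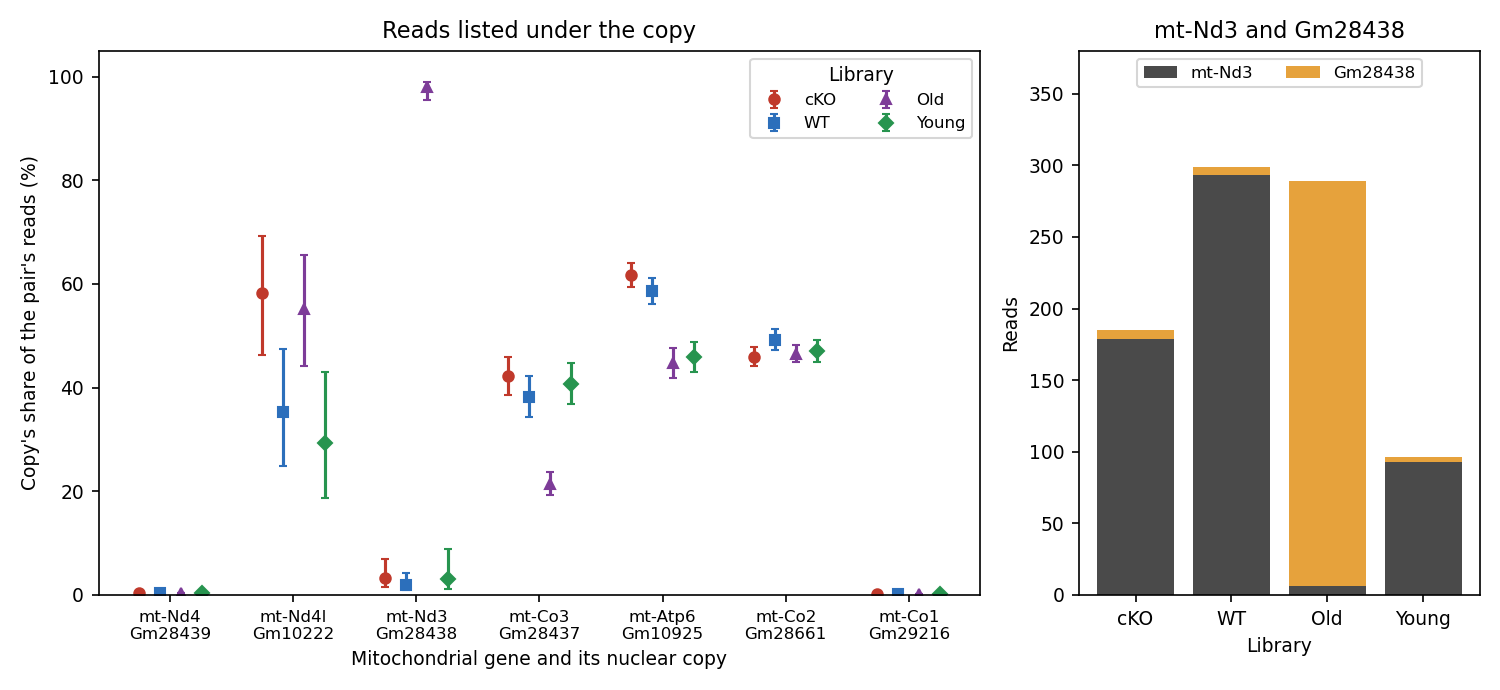
Left, the share of each pair's reads listed under the chromosome 1 copy, in percent, for the 7 pairs and 4 libraries, with 95% Wilson intervals; right, reads of mt-Nd3 and of Gm28438 stacked for each library. In Old, 283 of 289 reads of the mt-Nd3 pair were listed under the copy, and in the library labelled cKO, WT and Young at most 6 were.

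By class, the reads of mitochondrial genes made up 2.02% of the library labelled cKO and 2.33% of WT, and 2.27% of Old and 1.76% of Young. Ribosomal RNAs took 23.6% of the mitochondrial reads in the library labelled cKO (95% Wilson interval 23.5 to 23.7) and 30.6% in WT (30.4 to 30.7), and 32.3% in Old (32.2 to 32.5) and 26.3% in Young (26.2 to 26.5). The messages of complex IV took 28.2% in the library labelled cKO and 22.1% in WT, and 34.4% in Old and 25.6% in Young. Messages of complex I took 24.9% in the library labelled cKO and 24.6% in WT, and 18.0% in Old and 24.4% in Young. The complex III message mt-Cytb took 22.7% in the library labelled cKO and 22.2% in WT, and 14.3% in Old and 23.2% in Young. Old thus held the largest complex IV share and the smallest complex I and complex III shares of the 4 libraries. These are parts of the mitochondrial reads, so a larger share of one class lowers the others. Of all reads, complex I messages made up 0.504% in the library labelled cKO and 0.573% in WT, and 0.408% in Old and 0.429% in Young. The complex III message made up 0.460% in the library labelled cKO and 0.518% in WT, and 0.326% in Old and 0.408% in Young. The ratio of mt-Co1 to mt-Cytb by RPKM was 0.903 in the library labelled cKO and 0.722 in WT, and 1.74 in Old and 0.803 in Young, so that Old was the only library with more mt-Co1 than mt-Cytb.

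**Figure D3:**
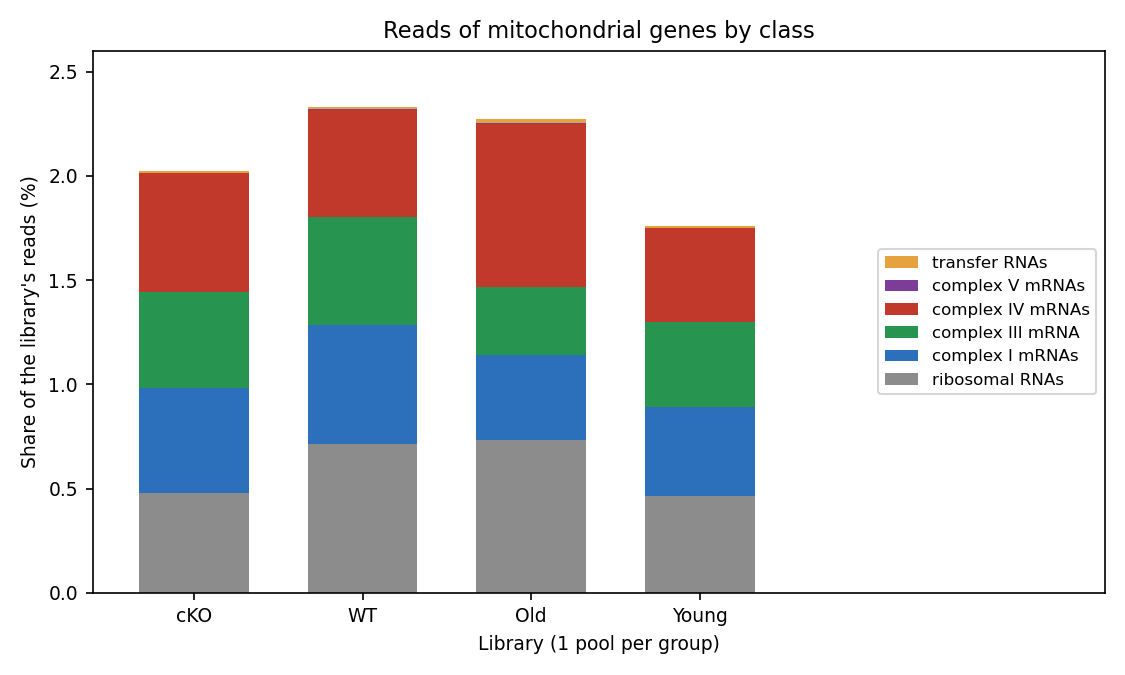
Share of each library's reads that came from mitochondrial genes, in percent, stacked by class, with 1 pooled library per bar. The complex IV segment measures 0.571% in the library labelled cKO and 0.514% in WT, and 0.781% in Old and 0.450% in Young; the segments of complex V and of the transfer RNAs are each under 0.02%.

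In the library labelled cKO set against WT, no mitochondrial gene passed the size rule. The rule asks for 100 reads or more in the larger library and for a whole 95% interval at least 2-fold away from 1, and rose and fell are written only of genes that meet it; ratios are of reads over library sizes scaled by the trimmed mean of M-values (TMM). Of 14 members with 100 reads, 0 passed, beside 4.22% of all 6273 genes with that many reads, of which 2.52% rose and 1.71% fell. The nearest was mt-Rnr1, with 11784 reads in the library labelled cKO and 22312 in WT, a ratio of 0.519 (0.507 to 0.531). mt-Rnr2 had 72699 reads in the library labelled cKO and 105703 in WT, a ratio of 0.676 (0.669 to 0.682). Both ribosomal RNAs had lower ratios than any complex IV message. The messages of complexes I and III had ratios below 1 as well, none as low as that of mt-Rnr1. mt-Cytb had 81462 reads in the library labelled cKO and 93047 in WT, a ratio of 0.860 (0.852 to 0.868). mt-Nd4 had 43992 in the library labelled cKO and 49874 in WT, a ratio of 0.867 (0.856 to 0.878), and mt-Nd5 had 23883 in the library labelled cKO and 27110 in WT, a ratio of 0.866 (0.851 to 0.881). Of the other complex I subunits, the ratio was 0.878 (0.855 to 0.903) for mt-Nd1, 0.736 (0.715 to 0.757) for mt-Nd2, 0.786 (0.749 to 0.825) for mt-Nd6 and 0.600 (0.496 to 0.725) for mt-Nd3. mt-Nd4l, with 28 reads in the library labelled cKO and 42 in WT, gave no detectable difference at this depth, at 0.655 (0.391 to 1.08) alone and at 1.01 (0.709 to 1.45) with its copy. The ratios of complex IV messages and of mt-Atp6 lay on the other side of 1. mt-Co1 had 99312 reads in the library labelled cKO and 90746 in WT, a ratio of 1.08 (1.07 to 1.08). The ratio of mt-Co2 was 1.10 (1.02 to 1.18) alone and 1.03 (0.976 to 1.09) with its copy. That of mt-Co3 was 1.14 (0.987 to 1.32) alone and 1.22 (1.09 to 1.37) with its copy. Whether the interval included 1 thus changed for both genes when the copy was added. Over the 17 members with 20 or more reads in the pair of libraries, the median log2 ratio was -0.35, beside -0.01 over 11537 genes, and 4 of the 17 were above 0. The 14 members with 100 reads or more over the pair had a median of -0.21. Between the wild-type pools WT and Young, described below, mt-Rnr1, mt-Rnr2 and mt-Nd3 differed by more than they did here. The erythroid markers, of which 10 rose and 1 fell of 13 with 100 reads, differed over the same pair; their part was not tested.

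In Old set against Young, 3 of 13 members with 100 reads rose, mt-Rnr1, mt-Co3 and mt-Tp, beside 4.26% of all 6519 genes rising, and 0 fell, beside 4.30% falling and 8.56% either way. mt-Rnr1 had 34056 reads in Old and 11158 in Young, a ratio of 3.34 (3.27 to 3.41). mt-Co3, a core subunit of cytochrome c oxidase (chrM:8607-9390, plus strand), had 1070 reads in Old and 352 in Young, a ratio of 3.33 (2.95 to 3.77). With the reads of its copy added, the ratio was 2.51 (2.28 to 2.77), which also passed. The other complex IV messages were higher in Old without passing: mt-Co1 had 141157 reads in Old and 80203 in Young, a ratio of 1.93 (1.91 to 1.94), and mt-Co2 had 2054 in Old and 1088 in Young, a ratio of 2.07 (1.92 to 2.23). Of these 3 messages, mt-Co1 is the least shared, while mt-Co2 and mt-Co3 are almost wholly shared. For mt-Co1, 30.8% of 100-base windows and 51.1% of 50-base windows were found in another transcript.

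Of the complex I messages, mt-Nd3 stood at 0.0706 times Young alone and at 3.30 times with its copy, as given above. Alone it had under 100 reads in both libraries and was not among the members tested. The sum with its copy, with 289 reads in Old, met the size rule. mt-Nd4 had 34695 reads in Old and 36953 in Young, mt-Nd5 21085 in Old and 22183 in Young, mt-Nd6 2504 in Old and 2653 in Young, and mt-Nd2 6778 in Old and 7432 in Young. The ratio of mt-Nd4 was 1.03 and that of mt-Nd5 1.04, and with library totals in place of TMM they were 0.922 and 0.934, so that the direction of both turned with the scaling. For mt-Nd6, at 1.03 (0.978 to 1.09), and mt-Nd2, at 0.999 (0.966 to 1.03), the interval included 1, and library totals put them at 0.927 and 0.896. mt-Nd4l had 35 reads in Old and 36 in Young, a ratio of 1.06 (0.649 to 1.74) alone and 1.67 with its copy. mt-Nd1 had 10241 reads in Old and 8449 in Young, a ratio of 1.33 (1.29 to 1.37). mt-Cytb had 60151 in Old and 73955 in Young, a ratio of 0.891 (0.881 to 0.900). The large ribosomal RNA mt-Rnr2 had 101588 reads in Old and 72732 in Young, a ratio of 1.53 (1.51 to 1.54), less than that of mt-Rnr1. The ribosomal RNAs lie next to each other on the same strand with only a transfer RNA between them. By RPKM, mt-Rnr2 stood at 3.72 times mt-Rnr1 in the library labelled cKO and 2.86 times in WT, and at 1.80 times in Old and 3.93 times in Young. Over 18 members with 20 or more reads the median log2 ratio was 0.14, beside -0.06 over 11694 genes, and 13 of the 18 were above 0; the 13 members with 100 reads or more over the pair had a median of 0.41. Library totals in place of TMM moved the median over all genes to -0.22 and that of the members to -0.014. Neutrophil markers, of which 11 of 11 with 100 reads rose, and B-cell markers, of which 6 of 10 fell, differed over the same pair; their part was not tested.

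**Figure D4:**
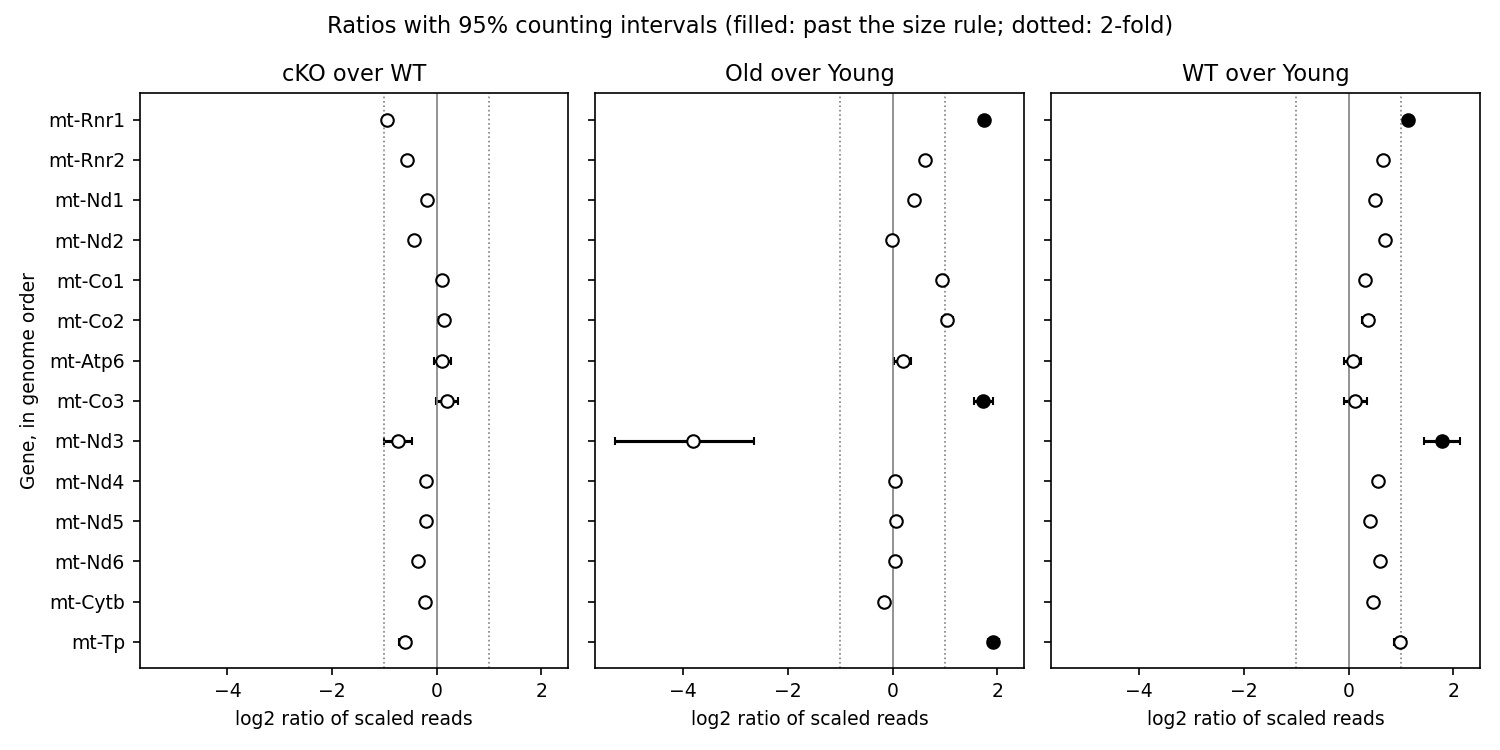
Log2 ratio of TMM-scaled reads (x axis) for the 14 mitochondrial genes with at least 100 reads in some library, in 3 comparisons, with bars for the 95% counting interval, which are often narrower than the symbol. Filled symbols met the size rule: no gene in the left panel, mt-Rnr1, mt-Co3 and mt-Tp in Old over Young, and mt-Rnr1 and mt-Nd3 in WT over Young; mt-Nd3 in Old over Young, at -3.82, had under 100 reads in both libraries.

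The pools WT and Young were both labelled wild type and 3 months old. Setting them side by side shows how far libraries with the same genotype and age labels differed. WT mice were littermates of the knockout mice, no strain is stated, and the pools come from separately scaled tables. Differences of strain or processing therefore cannot be told apart from those between like pools. WT carried more mitochondrial reads, with a ratio of 1.44 (1.43 to 1.44) over all members. Of 14 members with 100 reads, 2 rose in WT, beside 0.439% of all 6373 genes: mt-Rnr1, with 22312 reads in WT and 11158 in Young, a ratio of 2.19 (2.14 to 2.24), and mt-Nd3, with 293 in WT and 93 in Young, a ratio of 3.44 (2.72 to 4.40). None fell, beside 0.565% of all genes, and 1.00% passed either way. With library totals, mt-Rnr1 no longer passed, at 2.02. The median log2 ratio of 17 members was 0.46, with 16 of 17 above 0, beside 0.00 over 11567 genes; library totals gave 0.34 for the members and -0.12 for all genes. All 12 messages with 20 reads had ratios above 1, from 1.06 for mt-Atp6 (0.943 to 1.19), which library totals put at 0.978, to the 3.44 of mt-Nd3. mt-Tp, which rose in Old, also differed between these pools, with 1746 reads in WT and 965 in Young, a ratio of 1.98 (1.83 to 2.14). Of the erythroid markers 0 rose and 5 fell of 12 with 100 reads, and of the neutrophil markers 2 rose and 0 fell of 4; their part was not tested.

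Old gave other ratios against WT than against Young; these comparisons share Old, and those of the library labelled cKO share that library. Over all members the ratio was 1.44 (1.43 to 1.45) for Old over Young and 1.00 (0.999 to 1.01) for Old over WT. The platelet markers were higher in Old too, with a median log2 ratio of 0.57 against Young, 13 of 16 above 0. Against WT their median was 0.46, with 14 of 16 above 0. On that measure the members had a median of 0.14 against Young, with 13 of 18 above 0. Against WT the median of the members was -0.18, with 7 of 18 above 0. A higher ratio against Young was thus not particular to the mitochondrial genes. Against WT the medians of members and platelet markers lay on opposite sides of 0. The part of the platelet markers was not tested. mt-Rnr1 had a ratio of 1.53 (1.504 to 1.556) for Old over WT and no longer passed, and mt-Tp one of 1.92 (1.81 to 2.03). mt-Co3 rose against WT as well, at 3.05 (2.70 to 3.45), and on the sum with its copy at 2.40 (2.17 to 2.65). mt-Co1 stood at 1.56 times WT (1.55 to 1.57) and mt-Co2 at 1.60 times (1.49 to 1.71), whereas mt-Cytb stood at 0.648 (0.641 to 0.655), mt-Nd4 at 0.697 (0.688 to 0.707) and mt-Nd2 at 0.613 (0.595 to 0.632). Against either pool the ratios of the 3 complex IV messages lay above those of mt-Cytb and of the long complex I messages. For Old over WT the only member that fell was mt-Nd3, which on the sum with its copy stood at 0.969. Over all genes, 8.75% of 6328 passed for Old over WT, of which 4.54% rose and 4.22% fell. Set against Young in place of WT, the library labelled cKO had 0 of 14 members past the rule, beside 2.86% of 6428 genes, of which 2.07% rose and 0.793% fell, and its ribosomal RNAs stood at 1.16 (1.13 to 1.19) for mt-Rnr1 and 1.10 (1.09 to 1.11) for mt-Rnr2, above 1 where they were below 1 against WT.

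Of the transfer RNAs, mt-Tp, which carries proline, was the only one with 100 reads. It lies on the minus strand at the end of the coding part of the genome, beside the control region, at chrM:15356-15422, and its 67 bases (GENCODE M21, mm10, 5′ to 3′, with no part capitalised) are shown because its count far exceeded that of every other transfer RNA:
mt-Tp: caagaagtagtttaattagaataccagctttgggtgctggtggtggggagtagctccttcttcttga
It had 1169 reads in the library labelled cKO and 1746 in WT, and 3345 in Old and 965 in Young. The ratio was 0.658 (0.610 to 0.709) for the library labelled cKO over WT and 3.80 (3.53 to 4.08) for Old over Young. The sources used here do not give how reads that overlap only part of a gene were counted, nor whether they were counted by strand. Reads of the transfer RNA and of longer RNAs from either strand over these 67 bases therefore cannot be told apart. The other 11 had at most 27 reads in any library. mt-Tc, for cysteine, had 14 reads in the library labelled cKO and 21 in WT, and 16 in Old and 21 in Young, and mt-Tn, for asparagine, had 7 in the library labelled cKO and 10 in WT, and 14 in Old and 6 in Young. mt-Ty, for tyrosine, had 7 in the library labelled cKO and 6 in WT, and 8 in Old and 5 in Young. The intervals of these 3 included 1 in both comparisons. mt-Tw, for tryptophan, had 5 reads in the library labelled cKO and 11 in WT, and mt-Tt, mt-Tg, mt-Ts2 and mt-Tl2 had at most 3 in either; these 5 were not analysed in Old and Young. mt-Tl1, a leucine transfer RNA, had 10 reads in the library labelled cKO and 18 in WT, and 3 in Old and 27 in Young, a ratio of 0.122 (0.0236 to 0.395) for Old over Young. mt-Tm, the methionine transfer RNA, had 12 reads in the library labelled cKO and 0 in WT, and the 95% interval of the ratio began at 2.73. mt-Te had 8 reads in Old and 1 in Young, a ratio of 8.76 (1.17 to 389). None of these 3 reached the minimum of 100 reads.

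Of the ATP synthase messages, mt-Atp8 and mt-Atp6 overlap by 43 bases in different reading frames, so that reads in the overlap belong to both. The overlap (chrM:7927-7969, plus strand, mm10) is shown with the start codon of mt-Atp6 in capitals:
mt-Atp8 and mt-Atp6 overlap: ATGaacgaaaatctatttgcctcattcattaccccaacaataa
mt-Atp6 had 643 reads in the library labelled cKO and 588 in WT, a ratio of 1.07 (0.959 to 1.204), and 634 in Old and 607 in Young, a ratio of 1.14 (1.02 to 1.28). No difference of mt-Atp6 between the library labelled cKO and WT was detectable at this depth. With its copy added the ratio was 1.16 (1.08 to 1.25) for the library labelled cKO over WT and 1.12 (1.03 to 1.22) for Old over Young.

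The nuclear subunits of the same complexes were set beside the mitochondrial ones. Of 76 nuclear genes of complexes I to V, 60 had 100 reads in the library labelled cKO or WT, and 0 rose and 1 fell, beside 4.22% of all genes passing either way. That gene was Atp5e, the epsilon subunit of ATP synthase, with 2474 reads in the library labelled cKO and 5744 in WT, a ratio of 0.423 (0.404 to 0.444). In Old or Young 65 had 100 reads and 0 passed, beside 8.56% of all genes, with Atp5e at 8941 in Old and 4763 in Young, a ratio of 2.06 (1.98 to 2.13). The library labelled cKO over WT gave these genes a median log2 ratio of -0.18, and Old over Young one of -0.02. For complex IV, the 3 mitochondrial messages held 5.74 times the reads of the 12 nuclear subunits in Old and 3.15 times in Young, and 4.56 times in the library labelled cKO and 3.56 times in WT. For complex I, 7 mitochondrial messages held 6.76 times the reads of 36 nuclear subunits in Old and 7.35 times in Young, and 9.72 times in the library labelled cKO and 10.7 times in WT. The nuclear complex IV subunits summed to 1361 RPM in Old and 1430 in Young, and 1253 in the library labelled cKO and 1444 in WT. Their median log2 ratio for Old over Young was 0.36, with 11 of 12 above 0. The sums rest on library totals and the median on TMM-scaled sizes, so they are on unlike scales. The Old over Young size factor was 1.018 by totals and 0.913 by TMM. None of the 12 passed. The highest ratio among them was that of Cox6a1, with 2572 reads in Old and 1616 in Young, a ratio of 1.74 (1.64 to 1.86), and the lowest that of Cox5a, with 3193 in Old and 6128 in Young, a ratio of 0.571 (0.546 to 0.596).

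Nuclear genes for the upkeep of the mitochondrial genome and its RNA had few reads. Of 20 listed genes of mitochondrial DNA replication and transcription, 6 had 100 reads in either pair. The counts of this list and of those that follow stand beside the same shares over all genes, 4.22% in the pair of the library labelled cKO and WT and 8.56% in that of Old and Young. In Old over Young 0 rose and 1 fell, Mterf3, a regulator of mitochondrial transcription, with 50 reads in Old and 152 in Young, a ratio of 0.360 (0.256 to 0.499). Tfam, which packages mitochondrial DNA and starts its transcription, had 46 reads in Old and 130 in Young, a ratio of 0.387 (0.271 to 0.546), which did not pass. In the library labelled cKO over WT 0 passed, with Mgme1, a mitochondrial exonuclease, at 396 reads in the library labelled cKO and 177 in WT, a ratio of 2.20 (1.84 to 2.64). Of the genes of mitochondrial RNA processing and stability 0 of 9 passed in the first pair and 0 of 10 in the second. They included Lrpprc, which stabilises mitochondrial messages, with 191 reads in Old and 343 in Young, a ratio of 0.610 (0.508 to 0.730), and Mtpap, the mitochondrial poly(A) polymerase, with 107 in the library labelled cKO and 202 in WT, a ratio of 0.520 (0.408 to 0.661).

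Of 77 mitochondrial ribosomal protein genes, 17 had 100 reads in the library labelled cKO or WT and 0 passed, beside 4.22% of all genes. In Old or Young 20 had 100 reads, 0 rose and 1 fell, beside 8.56% of all genes passing. That gene was Mrpl43, with 53 reads in Old and 176 in Young, a ratio of 0.330 (0.238 to 0.451). Over 76 genes each, their median log2 ratio was -0.18 with the library labelled cKO over WT and -0.43 with Old over Young, where the ribosomal RNAs had log2 ratios of 1.74 for mt-Rnr1 and 0.61 for mt-Rnr2. Of the translation factors 0 of 4 passed in the first pair and 0 of 3 in the second. Among 17 mitochondrial transfer RNA synthetases none had 100 reads in the first pair, and 2 did in the second, of which Lars2, the leucine one, rose, with 227 reads in Old and 27 in Young, a ratio of 9.21 (6.16 to 14.3). Lars2 reached 100 reads in Old alone, with 46 in the library labelled cKO and 63 in WT. The list as a whole went the other way, with a median log2 ratio of -0.62 for Old over Young and 4 of 14 above 0. Of 19 genes that mark mitochondrial content 16 had 100 reads in each pair; 0 passed in the library labelled cKO over WT, and in Old over Young 0 rose and 1 fell, Phb2, an inner-membrane scaffold protein, with 146 reads in Old and 421 in Young, a ratio of 0.380 (0.312 to 0.459). Vdac1, the outer-membrane channel, had 10072 reads in Old and 5524 in Young, a ratio of 2.00 (1.93 to 2.06), which did not pass.

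The authors' deposited table gives its own p-values, each of which compares 2 libraries and not the conditions. At an adjusted p under 0.05 the authors' deposited table called 1 of 26 members higher in the library labelled cKO, mt-Tm, which had 0 reads in WT, with a log2 fold change of 6.59 and an adjusted p of 0.0411, and 0 lower, beside 337 genes higher and 287 lower of 16467. For Old over Young the authors' deposited table called mt-Tp, mt-Rnr1 and mt-Co3 higher and mt-Nd3 and mt-Tl1 lower, of 20 members, beside 951 genes higher and 1053 lower of 16180. In the authors' deposited table mt-Nd3 had a log2 fold change of -3.80 and its copy Gm28438 one of 6.63 for Old over Young.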

How the data were processed

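Platelet RNA of 4 pooled libraries was sequenced. Per the submitters' processing notes, the build was mm10 and the tools were featureCounts 1.5.0-p3, HISAT2 2.0.5, CASAVA and DESeq2 1.20.0, with no stated role or order. The authors deposited, in 2 tables, a signal per gene and library, scaled within each table. The deposited tables also hold a log2 fold change, p-values and their adjusted values per gene, per the file headers. The design assumed counts; the deposited signal proved to be whole reads multiplied by a step of each library, with a small constant added, so the reads were recovered (100% of values within 0.02 read). A further 4 per-sample columns match no sample and were not used. Genes with fewer than 2 reads over a table's libraries are not listed in it.

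Library sizes were scaled by TMM for each pair (edgeR 4.0.16, R 4.3.3), across the 2 tables on genes in both. No test across replicates is possible; ratios carry exact 95% Clopper-Pearson intervals (SciPy 1.17.1), shares Wilson intervals. Medians used a pseudocount of 0.5 read. Nothing says that reads are independent molecules, so intervals cover counting error only. The interval rule was also run on simulated reads that carried counting error alone, so that run did not test the spread between pools. Copies were looked for only among the GENCODE M21 transcripts of the chromosome 1 block, which were aligned to the mitochondrial genes. Transcripts elsewhere were not aligned, so how similar other copies are was not measured. The window search covered all GENCODE M21 transcripts. In it mt-Nd2, which has no copy in the block, shared 3.19% of its 100-base windows. Named genes were all members, Elavl1, the copies, and of each nuclear list those past the size rule or with the largest ratios, up to 4; of these, examples are given. The members and lists were chosen with earlier results of these data known. Comparisons of the library labelled cKO with Young and of Old with WT, and the sums with copies, were added after the data were seen. Alternatives were DESeq2 1.42.0 size factors, library totals, TMM without mitochondrial genes, other read minimums, fold bounds and interval widths.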

Additional observations from a re-analysis of the deposited data

How the results depend on the processing

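Results are given for the library labelled cKO over WT, then Old over Young, then WT over Young. With a minimum of 20 reads, 571 of 10599, 1194 of 10888 and 293 of 10597 genes passed. Of mitochondrial genes 0 of 16, 5 of 17 and 2 of 17 did, with mt-Tl1 and mt-Nd3 added as lower in Old over Young. With no minimum, 841 of 16467, 1738 of 16180 and 478 of 14652 genes passed. Of mitochondrial genes 1 of 26 (mt-Tm), 5 of 20 and 2 of 19 did. A 1.5-fold bound gave 848 of 6273, 1518 of 6519 and 339 of 6373 genes. Mitochondrial genes among them were 1 of 14 (mt-Rnr1, lower), 6 of 13 and 5 of 14. A 4-fold bound gave 27, 108 and 4 genes of the same totals, with 0 mitochondrial in each comparison. These counts follow from the looser or stricter rule itself. Library totals left 1 mitochondrial gene of 14 (mt-Nd3) past the rule in WT over Young, beside 67 of 6373 genes. They gave median log2 ratios of the members of -0.014 in Old over Young and 0.34 in WT over Young. A minimum of 100 reads gave medians of -0.21 over 14 members in the library labelled cKO and 0.41 over 13 in Old, from fewer genes. Without ribosomal RNAs the mitochondrial share was 1.55% in the library labelled cKO, 1.62% in WT, 1.54% in Old and 1.30% in Young, and with haemoglobin genes left out of the total it was 2.05%, 2.35%, 2.29% and 1.79% in the same order. DESeq2 size factors, TMM without mitochondrial genes, a 99% interval and a pseudocount of 1 read moved no count by over 1.5 times and no median log2 ratio by over 0.05. The planned sum with pseudogenes that the tables describe as copies could not be run as written; with copies matched by sequence, mt-Nd3 in Old over Young turned to 3.30, and mt-Nd4l in the library labelled cKO over WT, 0.655 alone (0.391 to 1.08), to 1.01. The transfer RNAs other than mt-Tp, mt-Atp8 and mt-Nd4l all had under 100 reads, which limits their ratios. What kept these counts low was not tested. For mt-Nd4l, 98.5% of the 100-base windows also occur in another transcript, and mt-Atp8 overlaps mt-Atp6 by 43 bases. No paired analysis was possible because each group is 1 library. Leaving out a replicate was not possible for the same reason.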
